A study of Drosophila melanogaster with 2 samples.

Results

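The genes described here encode the translation initiation and elongation factors of Drosophila melanogaster. They were chosen by name alone, as the protein-coding genes of the Ensembl BDGP6 annotation whose symbol starts with eIF or eEF, and 52 of 13945 protein-coding genes met this rule, 44 initiation factors (eIF) and 8 elongation factors (eEF). The question was which of them carry binding of Fer2, a basic helix-loop-helix transcription factor, and where in the gene. The material was whole embryos, aged 6 to 24 h, from a stable transgenic line whose Fer2 carries green fluorescent protein (GFP) at the C-terminal end. Chromatin was sonicated, precipitated with an antibody against GFP and sequenced (ChIP-seq). There were 2 biological replicates, numbered 2 and 3, which form 1 group. No sample of another genotype or antibody was analysed here, so no condition could be compared. In whole embryos, binding in few cells and weak binding in many cells cannot be told apart.

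Initiation factors bring the small ribosomal subunit, the initiator methionine tRNA and the start codon of an mRNA together. eIF2 carries the initiator tRNA and is recharged with GTP by eIF2B, eIF3 is the scaffold on the small subunit, and the eIF4 proteins bind the cap and unwind the mRNA. Elongation factors then work on the assembled ribosome: eEF1alpha delivers aminoacyl-tRNAs, the other eEF1 proteins recharge it, and eEF2 moves the ribosome along the codons. Growing cells need these proteins in large amounts, and many of their genes are active in most tissues. The symbol rule also takes in relatives with other roles, such as eIF4EHP, which binds the cap without recruiting the ribosome and represses translation, and eIF6, which keeps the large subunit from joining too early.

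The authors deposited a list of 30000 peaks for each replicate, 30000 from both replicates pooled, and 2862 kept after the replicates were compared for irreproducible peaks, called thresholded below. Each peak has a summit and a signal value, a score by the authors with no stated unit, which was used only to rank peaks within a list, rank 1 being the highest. The thresholded list ends at a signal value of 75.7. The lists hold no read counts, so the depth is unknown. Every peak whose summit fell inside a gene, or at most 1 kb from either end, was counted for that gene, so a summit can count for neighbouring genes.

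Thresholded peaks lay at 17 of the 52 genes, at 13 of the 44 initiation factor genes and at 4 of the 8 elongation factor genes. In shares this was 29.5% of initiation factor genes (95% Wilson interval 18.2 to 44.2) and 50% of elongation factor genes (21.5 to 78.5), beside 23.1% of all protein-coding genes. The initiation factors were thus near the share of all genes, and the wide interval of the 8 elongation factor genes holds that share only just above its lower end. These intervals describe counts of genes, not the spread between embryo collections, and the difference between the classes was not tested. The highest peak was at most 500 bp from a transcription start site (TSS) of the same gene in 15.9% of initiation factor genes and 37.5% of elongation factor genes, against 14.7% of all genes. When weak peaks were included, pooled peaks lay at 30 of 44 initiation factor genes (68.2%) and at 8 of 8 elongation factor genes, against 67.9% of all genes. In the replicate 2 list the counts were 29 of 44 and 8 of 8, against 69.8% of all genes, and in the replicate 3 list 34 of 44 and 7 of 8, against 71.3%.

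**Figure D1:**
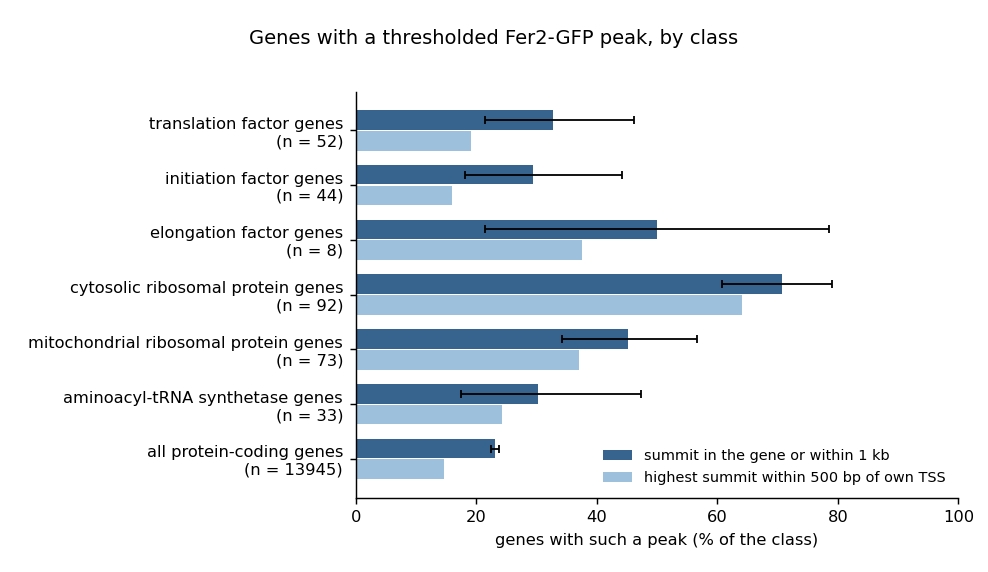
Share of genes with a thresholded peak (%, dark bars, with 95% Wilson intervals) and share whose highest thresholded summit lay at most 500 bp from an own TSS (light bars), by gene class. Initiation factor genes (29.5%) sit near all protein-coding genes (23.1%), elongation factor genes (50%) above both, and cytosolic ribosomal protein genes highest (70.7%).

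Sequence words at the summits of the translation factor genes were set beside those at all thresholded summits, wherever these lie. Summits at promoters alone were not counted as a background. The DRE (TATCGATA), a core promoter element bound by the factor Dref at many housekeeping genes, lay within 50 bp of 4 of their 26 thresholded summits (15.4%), against 1.64% of all 2862 thresholded summits. The E-box (CANNTG), the site of basic helix-loop-helix factors, lay at 8 of the 26 (30.8%), near the 32.4% of all thresholded summits. The 4 summits with a DRE were counted for eIF1, eIF3a, eIF4A and eEF1gamma, and they are shown first because the word and the summit nearly coincide in 3 of them. The eIF4EHP and eIF3h windows are shown as high peaks near an own start, at eIF3h an internal one, that lack a DRE. Each is on dm6 (RefSeq Release 6 sequence), read along the strand of the gene named, with exons left out. Capitals mark any of the words searched, on both strands. Besides the DRE and the E-box these were CGATA, known as a site of the insulator protein BEAF and also part of the DRE. The word of the GAGA factor was GAGAG. The homeodomain core was taken as TAATTA. Sites of the zinc finger family of GATA factors were AGATAA or, as an alternative, TGATAA. The word of the TATA box was TATAAA.
eIF1, chr3L:3222995-3223095, + strand, summit at base 51: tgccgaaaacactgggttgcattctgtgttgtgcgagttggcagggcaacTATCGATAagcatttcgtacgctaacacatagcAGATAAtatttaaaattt
eIF3a, chr3R:4433896-4433964, - strand, summit at base 30: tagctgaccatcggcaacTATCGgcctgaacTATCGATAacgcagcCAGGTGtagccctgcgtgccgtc
eIF4A, chr2L:5981637-5981737, + strand, summit at base 51: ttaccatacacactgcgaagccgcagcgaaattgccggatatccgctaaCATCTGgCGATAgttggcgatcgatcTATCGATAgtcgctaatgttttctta
eEF1gamma, chr3R:29220084-29220171, + strand, summit at base 51: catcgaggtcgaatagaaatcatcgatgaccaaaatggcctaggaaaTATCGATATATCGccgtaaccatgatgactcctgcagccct
eIF4EHP, chr3R:24109157-24109257, - strand, summit at base 51: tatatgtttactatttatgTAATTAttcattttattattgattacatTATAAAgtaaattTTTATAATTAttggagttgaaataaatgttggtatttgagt
eIF3h, chr2L:5052456-5052556, - strand, summit at base 51: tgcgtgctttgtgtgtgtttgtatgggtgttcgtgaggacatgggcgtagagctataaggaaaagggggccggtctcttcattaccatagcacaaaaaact

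The distance from the summit to the middle of the DRE was 3.5 bp at eIF1, 5.5 bp at eIF3a and 28.5 bp at eIF4A. At eEF1gamma it was 0.5 bp. The summits at eIF4A and eEF1gamma were nearest to these genes' own starts. That at eIF1 lay nearer to RpL28 (85 bp, against 296 bp from eIF1), and that at eIF3a nearer to CG1074 (30 bp, against 40 bp from eIF3a). The 250 bp upstream of eIF1 hold no DRE, and those upstream of RpL28 do. Over the 47 thresholded summits with a DRE in range, the median distance was 17.5 bp (quartiles 10 and 32.5). The word thus lay closer to the summit than the lower quartile at 3 of the 4 genes. The DRE was also frequent in the 250 bp upstream of the TSSs of the whole class: 14 of 52 genes (26.9%) had it, against 8.91% of all protein-coding genes, 30.4% of 92 cytosolic ribosomal protein genes and 15.2% of 33 aminoacyl-tRNA synthetase genes. A thresholded peak was found at 5 of the 14 genes with an upstream DRE (35.7%) and at 12 of the 38 without it (31.6%), where over all genes the shares were 33.3% and 22.1%. The eIF4EHP summit differs from the others in composition, with 15.8% G and C within 50 bp, the lowest of the 26 summits, which averaged 39.4% ± 9.83 (SD over peaks), against 32.4% ± 9.3 over all thresholded summits. A match is a description of the letters and not a bound site.

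**Figure D2:**
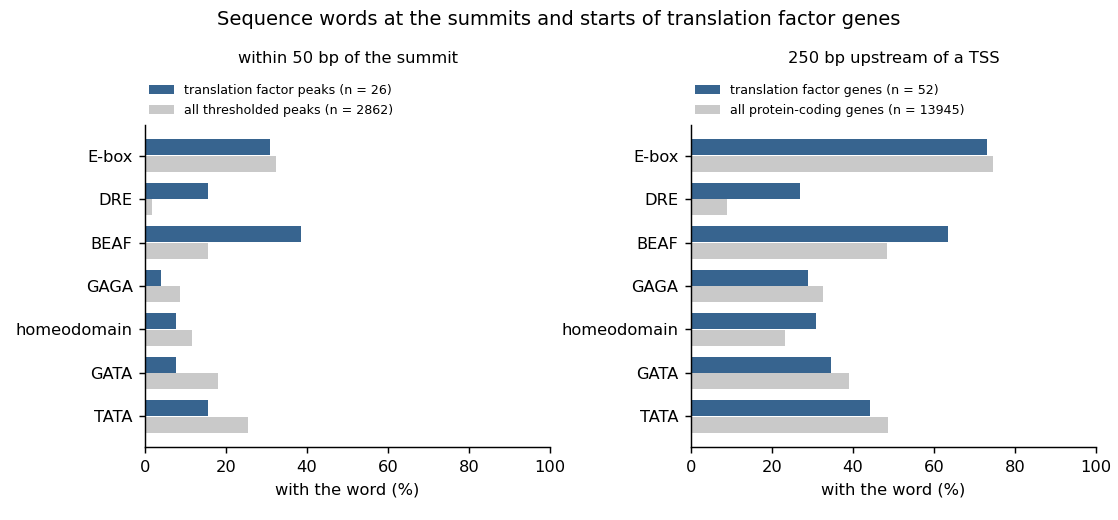
Share of translation factor peaks or genes (blue) with each sequence word, beside all thresholded peaks or all protein-coding genes (grey), within 50 bp of the summit (left) and in the 250 bp upstream of any annotated TSS (right). The DRE stands at 15.4% against 1.64% at summits and 26.9% against 8.91% upstream, while the E-box differs little in either place.

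Of the other words at the 26 summits, CGATA was at 10 (38.5%, against 15.5% of all thresholded summits), 4 of them with the DRE that contains it. GAGAG was at 1 (3.85%, against 8.67%), TAATTA at 2 (7.69%, against 11.5%), a GATA site at 2 (7.69%, against 18%) and TATAAA at 4 (15.4%, against 25.5%). In the 2862 highest peaks of each replicate list, taken alone, the DRE lay at 3 of 24 summits of these genes in replicate 3 (12.5%, against 1.99% of all 2862) and at 2 of 24 in replicate 2 (8.33%, against 1.68%). eEF1gamma was the gene with a DRE at its summit in both. These words were counted with results of the same peaks known, so the excess has no independent check.

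The initiation factors that read the start codon had 1 gene in 3 with a thresholded peak (95% Wilson interval 6.15 to 79.2), beside 23.1% of all genes. eIF1, which keeps the scanning ribosome from starting at the wrong codon, had a signal value of 219.5 at its highest peak (rank 523, chr3L:3222910-3223127), with 70.9 in replicate 2 (rank 989) and 133.8 in replicate 3 (rank 440). This summit lay 296 bp upstream of eIF1 and 85 bp upstream of RpL28, a ribosomal protein gene that runs the other way. A second thresholded summit 95 bp upstream of eIF1 (rank 1069, chr3L:3223061-3223430) was nearest to eIF1 itself. eIF1A, its partner on the small subunit, and eIF5, which triggers GTP hydrolysis by eIF2, had pooled peaks below the threshold, at rank 3436 with the summit 117 bp upstream and at rank 5848 with the summit 100 bp upstream.

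Of the 5 genes of eIF2 and its stand-ins, eIF2beta and eIF2D had a thresholded peak. This was 40% (95% Wilson interval 11.8 to 76.9), beside 23.1% of all genes. The eIF2beta peak (235.4, rank 459, chr3L:12524140-12524344) lay past the 3' end of the gene, 904 bp outside it. It was 175 bp upstream of Gcn5, which encodes a histone acetyltransferase, so it was nearer to that neighbour's start. The eIF2D peak was weaker (98.1, rank 2004, chr3R:29151694-29152063) but lay 85 bp upstream of eIF2D, a factor that can deliver tRNA without eIF2. Its ranks were 1645 in replicate 2 and 2775 in replicate 3. eIF2A and eIF2gamma, the GTP-binding subunit, had pooled peaks at ranks 3417 and 4275, with summits 16 and 44 bp upstream of their starts. eIF2alpha, the subunit that stress kinases phosphorylate, had only a weak pooled peak at rank 25786 and none in the replicate 2 list.

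The strongest peak near any of the 52 genes was counted for eIF2Bbeta, a subunit of the exchange factor for eIF2, but lay at another gene. Its signal value was 1663 (rank 4, chrX:2703694-2704085), and it ranked 4 in each replicate list too, with 634.0 in replicate 2 and 1040 in replicate 3. The summit was 694 bp upstream of eIF2Bbeta and 25 bp upstream of Ugalt, a transporter gene on the other strand. eIF2Bdelta had a peak of rank 2160 (93.0, chr2R:23385597-23385966) that was likewise nearer to a neighbour, 739 bp from its own TSS and 314 bp from that of CG30414. None of the other subunits had a thresholded peak: eIF2Bgamma had a pooled peak at rank 19905, eIF2Balpha only a replicate 3 peak at rank 9093, and eIF2Bepsilon, the catalytic subunit, no peak in any list. A thresholded peak was counted for 2 of the 5 eIF2B genes (40%, 95% Wilson interval 11.8 to 76.9), beside 23.1% of all genes.

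The eIF3 genes, 16 with their paralogs, were near the background: 4 had a thresholded peak (25%, 95% Wilson interval 10.2 to 49.5), beside 23.1% of all genes. eIF3c, a core subunit, had the highest (208.5, rank 579, chr2R:17665589-17665764), with its summit 15 bp downstream of its own TSS and close ranks in the replicates, 653 in replicate 2 and 598 in replicate 3. The replicates placed the summit upstream of a TSS, at -67 bp in replicate 2 and -2 bp in replicate 3. eIF3h followed (147.2, rank 1064, chr2L:5052394-5052534), with its summit in an intron, 274 bp downstream of an internal TSS. A second summit lay 58 bp downstream of the same TSS (rank 2209). Both lie farther from the outermost 5' end of the gene. eIF3a, another core subunit, shared a start region with CG1074: its peak (101.6, rank 1900, chr3R:4433750-4434119) lay 40 bp upstream of eIF3a and 30 bp upstream of CG1074. The eIF3g1 peak (79.8, rank 2673, chrX:2608758-2609127) lay past the 3' end, 67 bp upstream of Smyd3. A thresholded summit thus lay near an own start of 3 of the 16 genes, eIF3c, eIF3h and eIF3a. At eIF3h that start is the internal TSS.

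The other 12 eIF3 genes lay below the threshold. eIF3m was closest to it, with a pooled rank of 2951 and a signal value of 73.5, against the 75.7 of the last thresholded peak, and its summit was 29 bp downstream of its TSS. It ranked 2075 in replicate 3 but 5593 in replicate 2. eIF3b had a pooled rank of 7463, and eIF3j, eIF3k and eIF3f1 ranked between 16071 and 28797. No pooled peak was found at the remaining 7: eIF3i, eIF3e, eIF3f2, eIF3l, eIF3d1, eIF3d2 and eIF3g2. Of these, eIF3i, eIF3d1 and eIF3d2 had none in the replicate lists either.

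Among the 13 eIF4 genes, which handle the cap and the unwinding of the mRNA, 2 had a thresholded peak (15.4%, 95% Wilson interval 4.33 to 42.2), beside 23.1% of all genes. The eIF4EHP peak was the second strongest near any of the 52 genes (1071, rank 13, chr3R:24108995-24109390), with 557.2 in replicate 2 (rank 7) and 514.4 in replicate 3 (rank 25). It lay between divergent genes, 247 bp upstream of eIF4EHP and 129 bp upstream of CG18428. Weaker thresholded peaks lay in the long eIF4EHP gene, at ranks 2289 and 2637, both nearer to the TSS of Syx1A, the syntaxin gene, than to that of eIF4EHP. The helicase gene eIF4A had 2 thresholded peaks of nearly equal signal value. The summit at 81.8 (rank 2579, chr2L:5986032-5986401) lay past its 3' end, 131 bp upstream of ifc, and that at 81.6 (rank 2595, chr2L:5981502-5981871) lay 77 bp upstream of eIF4A. They also went opposite ways in the replicates: the one at eIF4A ranked 1416 in replicate 2 and 5317 in replicate 3, and the one at ifc 4929 in replicate 2 and 2050 in replicate 3.

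The cap-binding protein gene eIF4E1 had a pooled peak at rank 4107, with its summit 2531 bp downstream of the nearest eIF4E1 TSS, though a weaker pooled summit lay 70 bp from one. Its paralogs eIF4E3, eIF4E4, eIF4E5, eIF4E6 and eIF4E7 had pooled peaks at rank 20053 or lower, or none. The scaffold genes eIF4G1 and eIF4G2 were also weak, with no pooled peak at eIF4G1, which is on chromosome 4, and rank 10497 at eIF4G2. eIF4H1 and eIF4H2 ranked 13030 and 19951. eIF4B had no peak in any list.

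Both genes that act at the joining of the large subunit had a thresholded peak, beside 23.1% of all genes. The 95% Wilson interval of this share was 34.2 to 100, but it rests on 2 genes. At eIF6 the peak ranked 29 (835.4, chr2R:23850256-23850565), with 301.9 in replicate 2 (rank 39) and 537.8 in replicate 3 (rank 24). The summit was 122 bp upstream of the eIF6 TSS, in an exon of the antisense RNA gene asRNA:CR45928, whose TSS was 93 bp away. This was the strongest peak whose nearest protein-coding TSS was that of a translation factor gene. At eIF5B, the GTPase that joins the subunits, the highest of 3 summits (150.8, rank 1020, chr3L:3432772-3432954) was in an intron, 27699 bp from its own TSS and 7969 bp from that of sty, the nearest coding one. The eIF5B summit of rank 1771 lay inside the gene, 145 bp upstream of an internal TSS of eIF5B. eIF5B (32320 bp) and eIF4EHP (45884 bp) are long beside the median of 1955 bp of the 52 genes, and they had 19 and 25 pooled summits. A long gene takes in more summits under this rule, and the part of length in these counts was not tested.

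**Figure D3:**
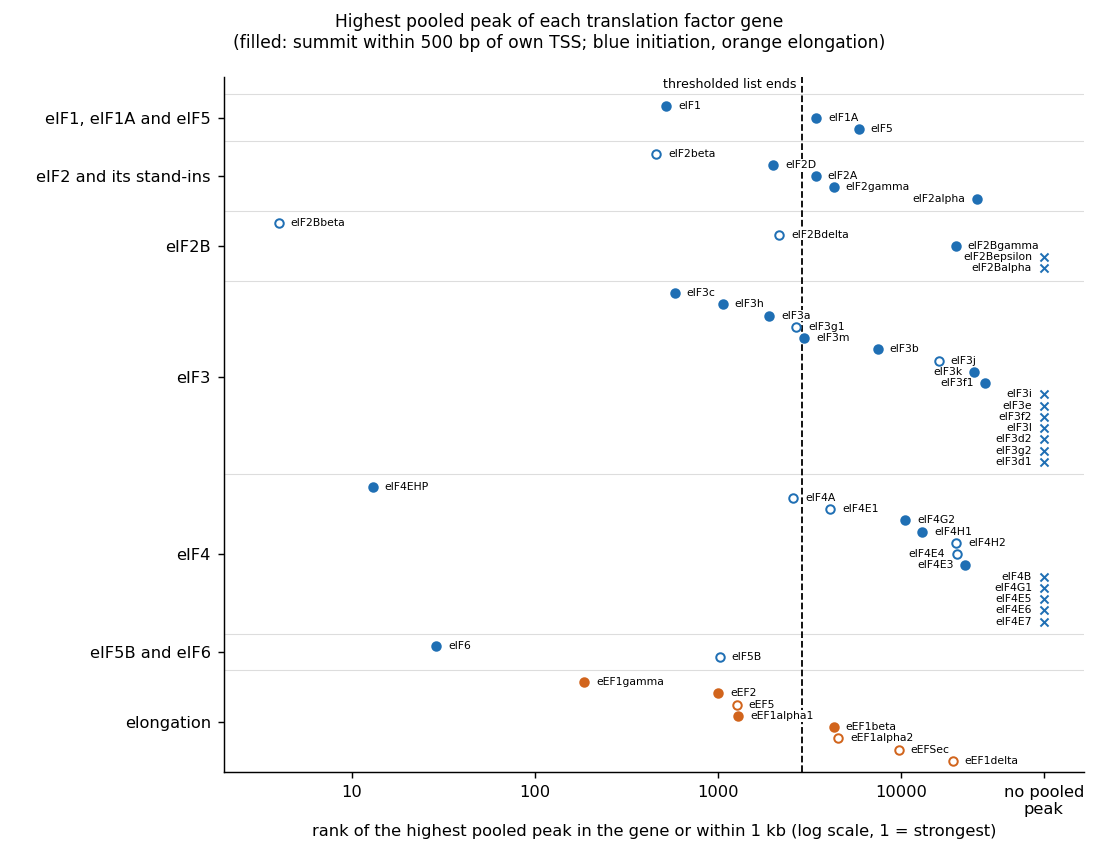
Rank of the highest pooled peak in each of the 52 genes or within 1 kb (log axis, 1 = strongest), by role. Filled points have the summit at most 500 bp from an own TSS, crosses have no pooled peak, and the dashed line marks rank 2862, where the thresholded list ends. The top ranks 4, 13 and 29 are at eIF2Bbeta, eIF4EHP and eIF6, and the 8 elongation factor genes lie between 186 and 19084. All 14 genes with no pooled peak are initiation factors. Pooled peaks lay at 68.2% of the initiation factor genes, near the 67.9% of all protein-coding genes.

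The elongation factor genes with a peak all had one at their own start. eEF1gamma, part of the complex that recharges eEF1alpha, was the highest (360.4, rank 186, chr3R:29219969-29220276), with 162.5 in replicate 2 (rank 194) and 193.2 in replicate 3 (rank 206). Its summits in the replicates lay 4 bp apart, and the thresholded one 38 bp upstream of the TSS. No other protein-coding gene was in range of it.

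eEF2, the translocase, had its summit 3 bp upstream of an annotated TSS (153.0, rank 1004, chr2L:21682063-21682154) and ranked 2076 in replicate 2 and 711 in replicate 3. The replicates placed the summit downstream of that TSS, by 32 bp in replicate 2 and 18 bp in replicate 3. eEF1alpha1, the main aminoacyl-tRNA carrier, had a summit 47 bp upstream of an internal TSS, in an intron (130.8, rank 1286, chr2R:11891957-11892076), and another 15 bp upstream of a TSS at the gene's edge (87.7, rank 2363, chr2R:11890935-11891304). Its highest peak ranked 1793 in replicate 2 and 976 in replicate 3. eEF5, the factor formerly named eIF5A that helps the ribosome past difficult peptide bonds, had its highest summit past the 3' end (132.7, rank 1262, chr2R:24060213-24060582), 20 bp downstream of the TSS of the ribosomal protein gene RpL12. Its other summit was 10 bp upstream of eEF5 (116.4, rank 1559, chr2R:24057603-24057972).

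The other 4 elongation factor genes had pooled peaks below the threshold. eEF1beta, the exchange factor itself, ranked 4281 with the summit 380 bp upstream. eEF1alpha2, the second eEF1alpha gene, ranked 4534 with the summit 4544 bp downstream, and another pooled summit lay 78 bp from its TSS. eEFSec, the carrier for selenocysteine tRNA, ranked 9696, and eEF1delta 19084, with summits 506 and 520 bp upstream. In the replicate lists eEFSec ranked 26144 in replicate 2 and 12710 in replicate 3, and eEF1delta 12721 in replicate 2 with no peak in replicate 3.

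Many of the peaks counted for these genes lay at a neighbour's start. Among all protein-coding TSSs, the nearest to the highest peak was the gene's own in 4 of the 13 initiation factor genes with a peak (30.8%). It was so in 3 of the 4 elongation factor genes with a peak (75%), and in 58.5% of all protein-coding genes with one. For the other 10 genes the nearest coding TSS was that of Ugalt, CG18428, Gcn5, RpL28, sty, RpL12, CG1074, CG30414, ifc or Smyd3. When any thresholded summit was allowed, and each was given only to the nearest protein-coding TSS, 7 of 44 initiation factor genes (15.9%) and 4 of 8 elongation factor genes (50%) had one, against 14.3% of all protein-coding genes. The initiation factor share was thus again close to the background. The elongation factor count was the same 4 genes, but it rests on 8 genes.

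**Figure D4:**
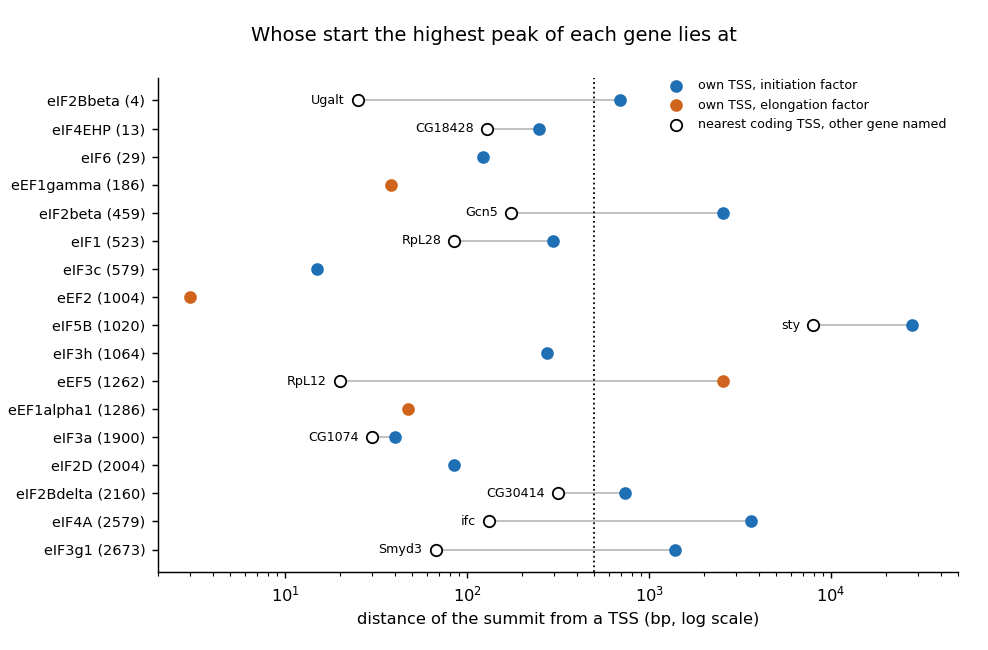
Distance (bp, log axis) of the highest thresholded summit of each of 17 genes from the gene's own TSS (filled) and, where another protein-coding TSS was nearer, from that one (open, gene named). The dotted line marks 500 bp. Of the 17, 10 lie within 500 bp of their own TSS (58.8%, against 63.6% of all protein-coding genes with a peak). Another gene's TSS is nearest for 10, and the own TSS for 41.2%, against 58.5% of all protein-coding genes with a peak.

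Most summits near own starts lay just upstream of them. Of the 10 genes whose highest summit was within 500 bp of the own TSS, 8 had it upstream, with a median of -44 bp (quartiles -113 and -12, negative upstream). At eEF2 and eIF3c the summits of both replicates lay on the other side of the TSS from the thresholded one. At eIF3a this held in replicate 2 only. Over all 17 genes with a peak the median was -38 bp, but 15 bp, so downstream, when only the outermost 5' end of each gene counted as its TSS. Initiation factor genes had a median of -85 bp over 7 genes and elongation factor genes of -38 bp over 3. All protein-coding genes with such a peak had a median of -143 bp (quartiles -219 and -86), 90.0% upstream. The cytosolic ribosomal protein genes lay at -40 bp over 59 genes, and the aminoacyl-tRNA synthetase genes at -184 bp over 8. By the nearest annotated TSS, the elongation factor summits were thus nearer in position to those of ribosomal protein genes. This describes few genes, with no test. Of the 3, the summits at eEF2 and eEF1alpha1 lie inside the gene, upstream only of an internal TSS. From the outermost 5' end they would count as downstream.

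The strongest peaks ranked alike in both replicates, and several weaker ones did not. All 26 thresholded peaks were overlapped by at least 1 bp by a peak of each replicate list, which the choice of thresholded peaks by comparing replicates largely fixes. The replicates' summits were a median of 66 bp apart (4 to 179). The peaks at eIF2Bbeta, eIF4EHP, eIF6 and eEF1gamma ranked 206 or better in each list. At eIF3a the rank was 9042 in replicate 2 (18.4) and 1362 in replicate 3 (71.3). The second eIF3h peak was matched to rank 606 in replicate 2 and rank 13223 in replicate 3. That replicate 2 peak has its summit 167 bp away and was also matched to the first eIF3h peak, so these 2 ranks may not compare like peaks. A replicate's peak is the highest that overlaps, so both eIF1 peaks were matched to the same one in each list. The same held for both eIF3h peaks in replicate 2. The lists hold further summits there, at closest 29 bp (replicate 2) and 99 bp (replicate 3) from the eIF1 TSS. At eIF3h a replicate 2 summit lay 3 bp from a TSS. The ranks of these further summits were not compared. With the 2862 highest peaks of each replicate list taken alone, replicate 2 gave 11 initiation and 4 elongation factor genes, against 22.3% of all genes, and replicate 3 gave 14 and 4, against 23.5%. In both lists the same 15 genes were found, and eIF3g1, eIF3a and eIF3m were in that of replicate 3 only.

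**Figure D5:**
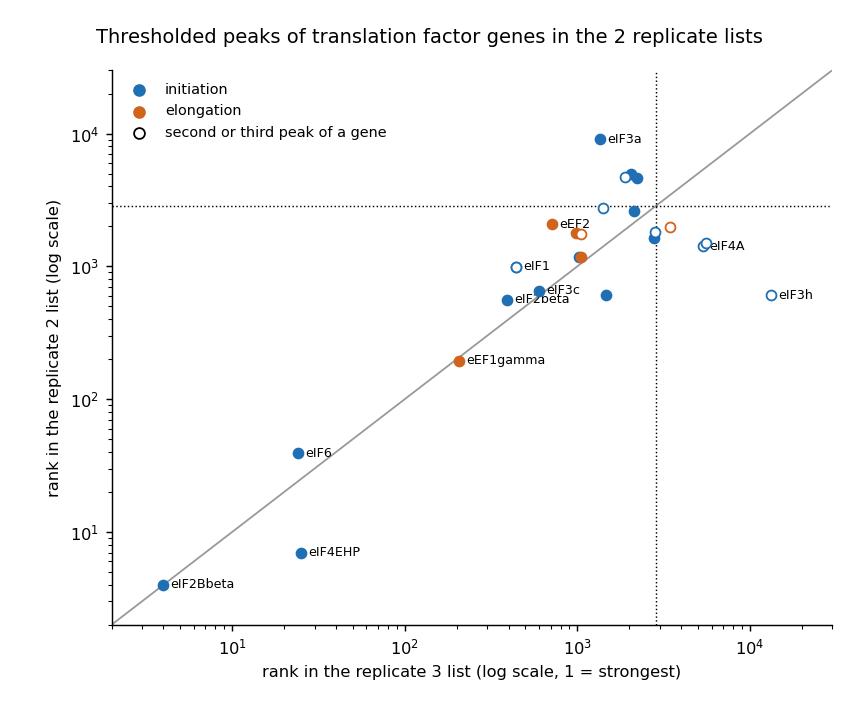
Rank of the 26 thresholded peaks of translation factor genes in the replicate 3 list (x, log axis) and in the replicate 2 list (y, log axis), initiation in blue and elongation in orange, further peaks of a gene open, the line marking equal ranks and the dotted lines rank 2862. Points at eIF2Bbeta, eIF6 and eEF1gamma lie near the line, and eIF3a and the second eIF3h peak lie far from it. The replicate 2 rank of the second eIF3h peak is that of the highest overlapping peak, which was matched to the first eIF3h peak too.

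The TCT initiator, a pyrimidine-rich start known from Drosophila ribosomal protein genes, was looked for as CCTTT or TCTTT starting within 5 bp of an annotated TSS on the gene's strand. Such a word was at 4 of 44 initiation factor genes (9.09%) and 3 of 8 elongation factor genes (37.5%). Its share was 3.51% of all protein-coding genes and 69.6% of 92 cytosolic ribosomal protein genes. The genes were eIF4A, eIF3i, eIF3m, eIF3f1, eEF1alpha2, eEF2 and eEF5, of which eIF4A, eEF2 and eEF5 had a thresholded peak. Of the genes with this core over the whole annotation, 33.9% had a thresholded peak, and of those without it 22.7%. The cytosolic ribosomal protein genes are part of both counts, with a peak at 50 of 64 genes with the core and 15 of 28 without it. Among the 52 translation factor genes it was 3 of 7 with the core (42.9%) and 14 of 45 without it (31.1%). The starts of eEF2 and eIF4A are shown as examples with a thresholded summit upstream of the same start, 3 bp at eEF2 and 77 bp at eIF4A. At eEF2 the summits of both replicates lay downstream of this start. The core is in capitals and begins at base 19 in both, downstream of the TSS at base 16. By the same numbering it begins at base 21 at eEF1alpha2, base 20 at eIF3i and base 19 at eIF3f1. A match describes the letters near a start, and whether it acts as an initiator was not tested.
eEF2, chr2L:21682102-21682131, - strand: gtcgctgcagcgcctcgcTCTTTcctgtcg
eIF4A, chr2L:5981749-5981778, + strand: cttttgcaagatggagccTCTTTtgcttgg

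Other genes of translation varied widely. Of 22 further cytosolic genes of translation and its control found in the annotation (24 were listed), 11 had a thresholded peak (50%), beside 23.1% of all genes, and 7 had the highest within 500 bp of the own TSS (31.8%, beside 14.7% of all genes). These genes are long, with a median of 6272 bp, beside 2166 bp over all genes, and the part of length in the count was not tested. They included Lk6, the kinase of eIF4E (977.4, rank 20, 981 bp upstream), eRF3 and eRF1, the release factors (ranks 905 and 1176), pix, which recycles ribosomes (rank 1147, 123 bp upstream), pelo, a rescue factor for stalled ribosomes (rank 1308, 134 bp upstream), and NAT1, a relative of eIF4G (rank 1322, 139 bp upstream). The peaks counted for eRF3 and HBS1 (rank 1587) were nearest to SC35 and Rap1. Thor, which encodes the eIF4E-binding repressor, and bel, a helicase gene, had pooled ranks of 3928 and 3409. The genes for mitochondrial translation factors, 8 found of 9 listed, had 0 thresholded peaks, with an upper Wilson limit of 32.4%, above the 23.1% of all genes, and mEFG1 came closest at a pooled rank of 3851. Among larger classes, 65 of 92 cytosolic ribosomal protein genes (70.7%), 33 of 73 mitochondrial ribosomal protein genes (45.2%) and 10 of 33 aminoacyl-tRNA synthetase genes (30.3%) had a thresholded peak, beside the same 23.1%. The initiation factor share of 29.5% was close to that of the synthetase genes, and no difference between these classes was tested.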

How the data were processed

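Per the text files deposited with the samples, peaks were called on dm6 for each replicate and for both replicates pooled, with the same control alignment, and the thresholded list was derived from the other 3. The control alignment was not analysed here, and which caller, settings and threshold were used is not given in the sources used here. The deposited signal value is a score by the authors with no stated scale. The −log10 q-values that the authors deposited served no ranking, since every thresholded peak holds the same value, 3.83. By signal value, ranks 1 to 2862 of the pooled list hold the thresholded peaks.

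Genes and TSSs came from Ensembl release 115 (BDGP6), without transposable elements, and sequence from RefSeq Release 6, the same assembly. Summits are column 2 plus column 10, made 1-based. A gene was given each summit in it or within 1 kb. Own-TSS distance is to the nearest TSS of any annotated transcript. Words were searched on both strands, except the TCT core. A replicate's peak is the highest that overlaps by at least 1 bp. Analyses ran in Python 3.11.15 with pandas 2.3.3. The assignment rule was tested on simulated data. No test was run, since there is 1 group of samples and genes are not replicates. Every gene of the class is named, by rule. The genes, lists, words and alternatives were chosen with earlier results of these data known, and the DRE peaks of eIF3a and eIF4A were picked for display after their words were seen. Of the listed genes, Tor, poly and mEFG2 were not found under these symbols.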

Additional observations from a re-analysis of the deposited data

How the results depend on the processing

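The count of initiation factor genes with a thresholded peak (13 of 44) depended on the number of peaks used and on the reach given to them. It was 8 with the 1431 highest thresholded peaks (18.2%, against 13.7% of all genes), 7 when a summit went only to the nearest coding TSS (15.9%, against 14.3%), 4 with summits in the gene only (9.09%, against 8.42%) and 30 with all pooled peaks (68.2%, against 67.9%). With summits within 500 bp of the gene it was 10 (22.7%, against 20.9%), and within 5 kb it was 19 (43.2%, against 39.8%). The count of elongation factor genes (4 of 8) was 2 with summits in the gene only (25%, against 8.42% of all genes) and 8 with all pooled peaks (against 67.9%). It stayed at 4 within 5 kb, where the 50% stands against 39.8% of all genes. The genes whose highest peak was within 500 bp of the own TSS were 10 of the 17 with a peak (58.8%). They were 4 of 6 with summits in the gene only (66.7%) and 24 of 38 with all pooled peaks (63.2%). Over all protein-coding genes with a peak, the share was 63.6% with thresholded and 52.2% with pooled peaks. Leaving out 1 replicate, with the 2862 highest peaks of the other in place of the thresholded list, gave 11 to 14 initiation factor genes, 4 elongation factor genes in each case, and 10 to 12 genes with their highest peak near the own TSS. The median summit position over the 17 genes with a peak (-38 bp) was -67 and -40.5 bp with a replicate left out, but 144.5 bp with summits in the gene only, which leaves 6 genes and drops upstream summits by construction, and 15 bp when only the outermost 5' end counted as the TSS. With eIF4EHP and eIF6 left out, 11 of 42 initiation factor genes had a peak (26.2%). The DRE count of 4 summits was 3 without replicate 2 and 2 without replicate 3, alternatives added after the data were seen. No paired analysis was possible because the 2 samples form 1 group. The lists hold no read counts, so what depth limits could not be measured.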
